A study of Canis lupus with 20 samples.

Results

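The genes described here encode antioxidant and glutathione enzymes, measured in the left atrium and left ventricle of dogs. The dogs had lost the right kidney to surgery (uninephrectomy) or had a sham operation, and the hearts were taken 12 weeks later. The members are the genes of the probe annotation whose single symbol names a glutathione transferase, glutathione peroxidase, peroxiredoxin, superoxide dismutase, heme oxygenase, quinone reductase, a gene starting with TXN, GCLC, GCLM, GSR, GSS or CAT. This gave 46 genes of 15115 with 1 symbol, carried by 98 probe sets of 43035. Each gene is represented by its brightest probe set over the 20 arrays. Of the 46 members 43 passed the filter on dim signals and were tested, and GPX5, HMOX1 and SOD3 did not pass. Genes such as GPX4, GSTP1 and MGST3 had no probe set with 1 symbol and are not analysed here.

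Both chambers of both operations make 4 groups of 5 Affymetrix canine arrays, with 1 array per tissue sample. All animals are described as normal dogs, the sham controls also underwent an operation, and age, breed and sex are not given in the sources used here. Of 6 dogs assigned to each operation, 5 samples per chamber were put on arrays, with no repeat arrays, so the p-values measure the spread between these samples. The comparisons ask what the loss of a kidney does to these genes in each chamber and how the chambers differ. Signals are log2 values, so a difference of 1 is a doubling, and each difference is given ± its standard error with n = 5 arrays per group.

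These enzymes keep reactive oxygen species low. Superoxide dismutases turn superoxide into hydrogen peroxide, and catalase, glutathione peroxidases and peroxiredoxins break the peroxide down. Glutathione and thioredoxin supply the electrons and are themselves reduced with NADPH, while glutathione transferases join glutathione to reactive compounds. The transcription factor NRF2 drives many of these genes. Heart muscle is dense in mitochondria, a main source of superoxide.

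The chamber markers went with the labels. Of the measured atrial markers 5 of 7 were higher and of the tested ventricular markers 3 of 3 were lower in sham atria, and BMP10, an atrial marker, was under log2 3 in every group. Signals of cell type markers moved with the chamber as well. The marker counts here are to be read beside the 11.2% of all probe sets called higher and 9.62% called lower in sham dogs. Among probe sets with a mean of at least log2 3 in 1 group, 33.3% were called in either direction. Fibroblast markers were called higher in the sham atrium for 6 of 9 genes and lower for 0, and their summed signal ranged from 13.49 to 14.62 in sham atria and from 13.03 to 13.38 in sham ventricles. Smooth muscle markers were called higher for 3 of 6 tested genes (summed signal 12.94 to 13.39 against 12.59 to 12.85), endothelial markers lower for 2 of 8 (11.25 to 11.41 against 11.53 to 11.83) and cardiomyocyte markers lower for 5 of 9 (16.69 to 16.80 against 16.90 to 17.09). Adipocyte markers were called higher for 3 of 7, with overlapping summed signals (11.92 to 12.83 against 11.56 to 12.28). Macrophage, lymphocyte and neutrophil markers had 0 calls in sham dogs, with 5 of 9, 7 of 8 and 2 of 4 genes under log2 3 in every group. Red cell, mesothelial and Schwann markers, with 3, 2 and 3 measured genes, were all under log2 3 in every group. The part of tissue composition in the member differences was not tested, and in tissue samples fewer cells of a type and less RNA per cell cannot be told apart.

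Between the chambers, 14 of the 43 tested members differed in sham dogs by limma at an adjusted p under 0.05, 8 higher and 6 lower in the atrium. This is 32.6% of them, where 20.8% of all 30047 tested probe sets (11.2% higher and 9.62% lower) and 22.8% of the brightest probe sets of 11423 genes were called. In uninephrectomized dogs 18 members were called, 10 higher and 8 lower, or 41.9%, where 27.3% of probe sets (14.7% higher and 12.5% lower) and 29.9% of genes were called. These splits count MGST1 as lower by its brightest probe set, and with either of its other probe sets they are 9 higher and 5 lower in sham and 11 higher and 7 lower in uninephrectomized dogs. The shares depend on brightness. Among probe sets with a mean of at least log2 3 in 1 group, 33.3% were called in sham and 41.4% in uninephrectomized dogs. There 15 and 18 members were called, with the dim GPX2, GPX7, GSTO2, TXNDC2 and TXNRD3 left out. The members were not compared with genes of like brightness, here or for the median differences below. By the brightest probe sets, 13 members were called in both operations, with the same sign in all 13, and 24 in neither. The 7 higher in the atrium in both were GPX3, GSTA4, GSTO1, MGST2, SOD1, TXNDC11 and TXNDC16, and the 6 lower were GSTK1, HMOX2, PRDX3, PRDX6, TXNL4A and, by its brightest probe set alone, MGST1. GPX1 was called in sham dogs alone, and GPX8, GSTO2, PRDX4, TXN2 and TXNIP in uninephrectomized dogs alone. For none of these 6 did the chamber difference itself change with the operation by the test of that change (adjusted p = 1 for each). The sham differences ran from -0.95 to 1.09 over the 43 members, with a median of 0.03, where the median over the 11423 genes was -0.01. Without regard to sign the median difference of the members was 0.23 in sham and 0.25 in uninephrectomized dogs, where it was 0.16 and 0.18 over the genes. Without any overlap between the sham chambers stood 5 members higher and 4 lower, beside 7.59% and 6.67% of all probe sets, and after uninephrectomy 6 stood higher and 6 lower, beside 11.4% and 9.57%, with MGST1 by its brightest probe set among the lower in each.

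**Figure D1:**
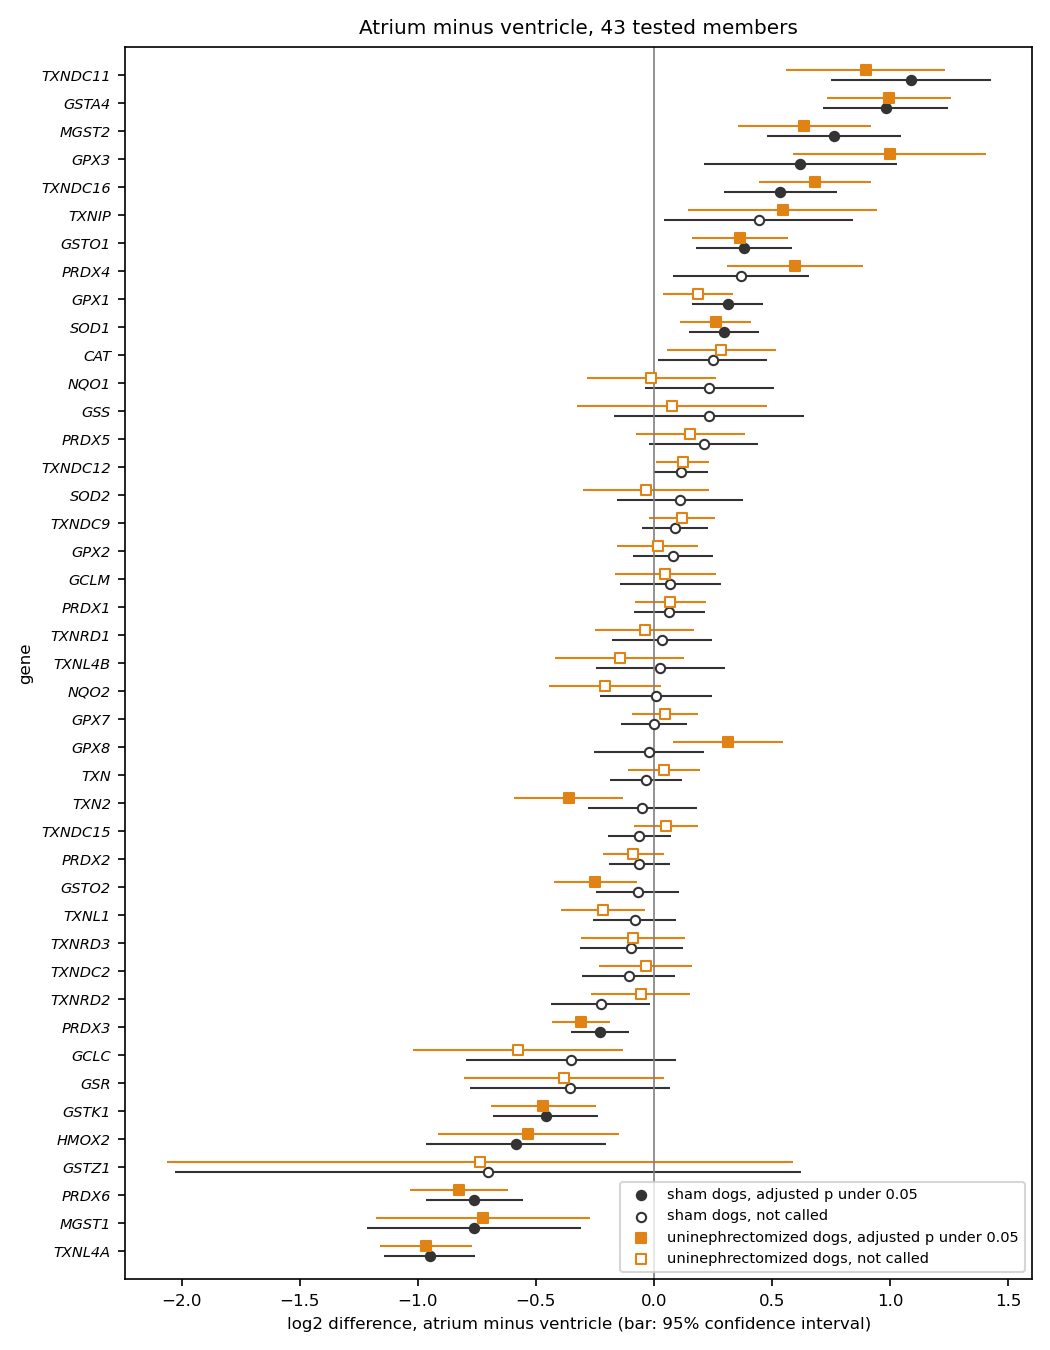
Log2 difference of atrium minus ventricle (horizontal axis) for the 43 tested members (vertical axis), in sham dogs (circles) and uninephrectomized dogs (squares), with 95% confidence intervals as bars. Filled symbols passed an adjusted p under 0.05: TXNDC11, GSTA4 and MGST2 lie farthest to the right and TXNL4A and PRDX6 are among the farthest to the left in sham dogs, and GSTZ1 has the widest intervals. Each gene is drawn by its brightest probe set, and MGST1, drawn at -0.76, was at 3.80 and 2.44 by its others.

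Uninephrectomy was followed by no called member in either chamber. In the atrium 0 of 43 members were called and 0 had an unadjusted limma p under 0.05, where 0% of all probe sets were called and 6.69% had an unadjusted p under 0.05. In the ventricle 0 were called and 5 (11.6%), NQO1, TXN2, GPX8, TXNRD1 and GCLC, had an unadjusted p under 0.05, where 0% of all probe sets were called and 6.67% had such a p. The difference between the surgery effects of the chambers was called for 0 members and for 0% of all probe sets, with 1 member (GPX8) and 2.97% of probe sets at an unadjusted p under 0.05. Of the 43 members 24 were positive in the atrium and 23 in the ventricle, with medians of 0.02 and 0.02, where the medians over the 11423 genes were -0.01 and -0.01. By the brightest probe sets, the operated and sham groups failed to overlap in 0 members. This stands beside 0.929% of probe sets in the atrium and 0.992% in the ventricle. By a weaker probe set, GPX1 was higher in every operated ventricle (9.85 to 9.93 against 9.67 to 9.81 in sham). By a weaker probe set of TXNDC15, every operated atrium was higher (7.97 to 8.18 against 7.83 to 7.95 in sham). The 95% confidence interval of the surgery effect lay within 0.5 of 0 for 35 members in the atrium and 32 in the ventricle, and within 1 for 42 in each. GSTZ1 was the exception, at 0.86 ± 0.63 (95% confidence interval -0.47 to 2.18) in the atrium and 0.90 ± 0.63 (95% confidence interval -0.43 to 2.22) in the ventricle.

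**Figure D2:**
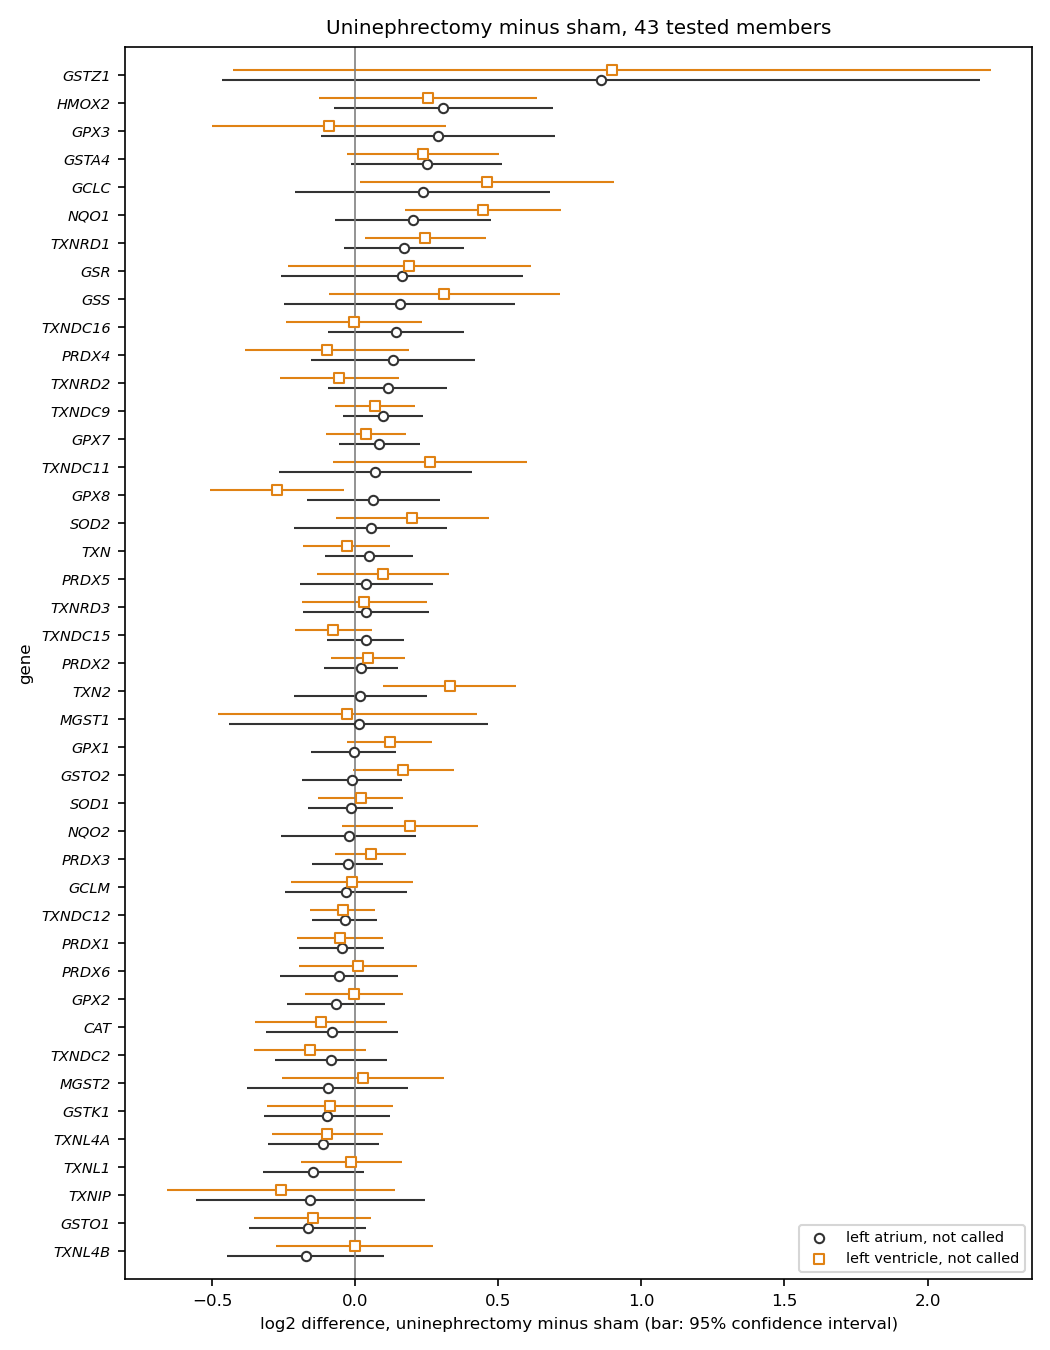
Log2 difference of uninephrectomy minus sham (horizontal axis) for the 43 tested members (vertical axis), in the left atrium (circles) and left ventricle (squares), with 95% confidence intervals as bars. All symbols are open because 0 members were called, and most intervals cross 0. NQO1, TXN2, GPX8, TXNRD1 and GCLC have ventricular intervals that do not.

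Among the superoxide dismutases and catalase, SOD1 was higher in the atrium and the others passed no test. In sham dogs SOD1 read 11.36, 11.38, 11.62, 11.62 and 11.30 in the atrium and 11.16, 11.16, 11.06, 11.34 and 11.09 in the ventricle. After uninephrectomy SOD1 read 11.39, 11.36, 11.50, 11.45 and 11.51 in the atrium and 11.15, 11.21, 11.12, 11.15 and 11.27 in the ventricle. By this brightest probe set the uninephrectomized chambers did not overlap for SOD1, the cytosolic copper-zinc dismutase, and the sham chambers did. The difference was 0.30 ± 0.07 (adjusted p = 0.00562) in sham and 0.26 ± 0.07 (adjusted p = 0.0101) in uninephrectomized dogs. The 2 other bright SOD1 probe sets were also positive in sham dogs, at 0.20 ± 0.08 (not called) and 0.50 ± 0.10 (called). The latter separated the sham chambers (9.40 to 9.88 against 8.97 to 9.38), and the former did not. In sham dogs SOD2 read 11.28, 11.17, 11.11, 11.18 and 11.37 in the atrium and 11.50, 11.27, 10.72, 11.04 and 11.02 in the ventricle. After uninephrectomy SOD2 read 11.37, 11.38, 11.45, 10.94 and 11.26 in the atrium and 11.30, 11.47, 11.48, 11.29 and 11.01 in the ventricle. For SOD2, the manganese dismutase of the mitochondrial matrix, all 4 groups overlapped, with chamber differences of 0.11 ± 0.13 (adjusted p = 0.597) and -0.03 ± 0.13 (adjusted p = 0.877). The ventricular surgery difference of SOD2 was 0.20 ± 0.13 (adjusted p = 0.777).

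In sham dogs CAT read 11.66, 11.71, 11.29, 11.58 and 11.73 in the atrium and 11.30, 11.26, 11.32, 11.25 and 11.58 in the ventricle. After uninephrectomy CAT read 11.45, 11.60, 11.72, 11.38 and 11.40 in the atrium and 11.27, 10.93, 11.14, 11.56 and 11.22 in the ventricle. Catalase, the peroxisomal enzyme that splits hydrogen peroxide, thus had overlapping chambers in both operations. The chamber difference was 0.25 ± 0.11 (adjusted p = 0.119) in sham and 0.29 ± 0.11 (adjusted p = 0.0614) in uninephrectomized dogs, and surgery differed by -0.08 ± 0.11 in the atrium and -0.12 ± 0.11 in the ventricle. With 1 array left out, CAT was called (adjusted p in brackets, here and for the genes that follow) in sham dogs without sham atrial array 3 (0.0371) and in uninephrectomized dogs without sham atrial array 3 (0.0426) or uninephrectomized ventricular array 4 (0.0145). In sham dogs SOD3 read 0.71, 0.69, 0.64, 0.83 and 0.70 in the atrium and 0.77, 0.70, 0.61, 0.67 and 0.61 in the ventricle. After uninephrectomy SOD3 read 0.70, 0.72, 0.69, 0.64 and 0.65 in the atrium and 0.60, 0.70, 0.69, 0.64 and 0.61 in the ventricle. These SOD3 signals, from the only probe set of the extracellular dismutase, lie at the low end of the scale and were not tested.

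Of the 6 glutathione peroxidases, enzymes that reduce peroxides, 5 were tested, and GPX1 and GPX3 were called higher in the sham atrium and 0 lower. Of all probe sets 11.2% were called higher and 9.62% lower there. In sham dogs GPX3 read 7.34, 6.44, 6.91, 6.70 and 6.54 in the atrium and 5.94, 6.34, 6.51, 6.08 and 5.95 in the ventricle. After uninephrectomy GPX3 read 7.58, 7.27, 7.05, 6.48 and 6.97 in the atrium and 6.00, 6.19, 6.24, 6.29 and 5.65 in the ventricle. GPX3, the secreted plasma form, was separated between chambers in uninephrectomized dogs and overlapped in sham dogs. It stood 1.54-fold higher in the sham atrium (0.62 ± 0.19, adjusted p = 0.0294) and 2-fold higher after uninephrectomy (1.00 ± 0.19, adjusted p = 0.000799), and the change of that difference was 0.38 ± 0.28 (adjusted p = 1). The sham GPX3 call was lost without sham atrial array 1 (0.0833), sham atrial array 3 (0.0566), sham ventricular array 1 (0.0704), sham ventricular array 4 (0.0576) or sham ventricular array 5 (0.0727). It was also lost with quantile normalization (0.0905) and with a covariate for RNA quality, the gap between 3' and more 5' control signals (0.0924). The weaker GPX3 probe set gave 0.37 ± 0.16 in sham dogs. The summed fibroblast signal, given above for the sham chambers, was 14.11 to 14.75 in uninephrectomized atria and 12.96 to 13.36 in uninephrectomized ventricles.

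In sham dogs GPX1 read 10.55, 10.68, 10.72, 10.73 and 10.45 in the atrium and 10.29, 10.18, 10.49, 10.32 and 10.29 in the ventricle. After uninephrectomy GPX1 read 10.58, 10.51, 10.62, 10.69 and 10.69 in the atrium and 10.42, 10.51, 10.27, 10.44 and 10.51 in the ventricle. By this brightest probe set the GPX1 groups, for the abundant cytosolic peroxidase, overlapped between chambers. Its difference was 0.31 ± 0.07 (adjusted p = 0.00389) in sham dogs and 0.19 ± 0.07 (adjusted p = 0.0595) after uninephrectomy, where it was called without sham atrial array 5 (0.0445), uninephrectomized atrial array 2 (0.0455) or sham ventricular array 3 (0.0455). The 2 other GPX1 probe sets gave 0.27 ± 0.06 (adjusted p = 0.00149) and 0.44 ± 0.08 (adjusted p = 0.000843) in sham dogs. Both separated the sham chambers. The first also separated the uninephrectomized chambers (9.94 to 10.18 against 9.85 to 9.93), and the second overlapped there. Surgery differed by 0.12 ± 0.07 (adjusted p = 0.765) in the ventricle by the brightest probe set.

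In sham dogs GPX8 read 9.98, 9.65, 9.78, 9.87 and 9.52 in the atrium and 9.70, 9.51, 9.80, 9.86 and 10.04 in the ventricle. After uninephrectomy GPX8 read 9.95, 9.91, 9.70, 10.03 and 9.53 in the atrium and 9.61, 9.34, 9.58, 9.43 and 9.59 in the ventricle. GPX8, a membrane peroxidase of the endoplasmic reticulum, was lowest in the uninephrectomized ventricles, which overlapped with the other 3 groups. Surgery differed by -0.27 ± 0.11 (adjusted p = 0.693) in the ventricle and 0.06 ± 0.11 (adjusted p = 0.943) in the atrium, and the second GPX8 probe set gave -0.32 ± 0.11 in the ventricle. The chamber difference was -0.02 ± 0.11 (adjusted p = 0.915) in sham and 0.31 ± 0.11 (adjusted p = 0.0425) in uninephrectomized dogs, and by the second probe set 0.15 ± 0.11 and 0.44 ± 0.11 (adjusted p = 0.00522). The call by the brightest probe set was lost without uninephrectomized atrial array 1 (0.0928), uninephrectomized atrial array 2 (0.0865), uninephrectomized atrial array 4 (0.108), uninephrectomized ventricular array 2 (0.106), uninephrectomized ventricular array 3 (0.0552) or uninephrectomized ventricular array 4 (0.0879), and with no filter on dim probe sets (0.0514). GPX2, GPX5 and GPX7 lay under log2 3 on average in every group, with values from 1.97 to 2.45, 1.11 to 1.59 and 2.79 to 3.11 over the 20 arrays.

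The 6 peroxiredoxins, thiol enzymes that remove peroxides, split by member. PRDX6 and PRDX3 were lower in the atrium, PRDX4 was higher in the uninephrectomized atrium, and PRDX1, PRDX2 and PRDX5 passed no test. In sham dogs PRDX6 read 11.10, 11.11, 11.39, 11.02 and 10.81 in the atrium and 12.00, 11.88, 11.81, 11.69 and 11.84 in the ventricle. After uninephrectomy PRDX6 read 11.18, 11.15, 10.91, 10.89 and 11.03 in the atrium and 11.91, 11.87, 11.86, 12.02 and 11.61 in the ventricle. Every atrial array lay below every ventricular one for PRDX6, a peroxiredoxin that reduces phospholipid peroxides and uses glutathione. It was 1.69-fold lower in the sham atrium (-0.76 ± 0.10, adjusted p = 1.92e-05) and 1.77-fold lower after uninephrectomy (-0.83 ± 0.10, adjusted p = 5.65e-06). The second PRDX6 probe set gave -0.82 ± 0.12 (adjusted p = 5.94e-05) in sham dogs. Uninephrectomy left PRDX6 at -0.06 ± 0.10 in the atrium and 0.01 ± 0.10 in the ventricle.

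In sham dogs PRDX3 read 11.99, 11.86, 11.95, 12.00 and 11.70 in the atrium and 12.22, 12.12, 12.02, 12.16 and 12.12 in the ventricle. After uninephrectomy PRDX3 read 11.88, 11.84, 11.96, 11.82 and 11.86 in the atrium and 12.17, 12.23, 12.18, 12.14 and 12.19 in the ventricle. PRDX3, the peroxiredoxin of the mitochondrial matrix, was likewise separated between chambers in both operations. Its difference was small, -0.23 ± 0.06 (adjusted p = 0.00861) in sham and -0.31 ± 0.06 (adjusted p = 0.000619) in uninephrectomized dogs. With quantile normalization the sham call was lost (0.0525). The within-group spread of PRDX3, a pooled SD of 0.08, was below that of all but 2.17% of tested probe sets.

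In sham dogs PRDX4 read 8.98, 9.50, 9.22, 9.18 and 9.24 in the atrium and 8.56, 8.95, 8.95, 9.0 and 8.81 in the ventricle. After uninephrectomy PRDX4 read 8.96, 9.43, 9.26, 9.66 and 9.47 in the atrium and 8.48, 8.83, 8.60, 8.72 and 9.15 in the ventricle. For PRDX4, the peroxiredoxin of the endoplasmic reticulum, the chambers overlapped in both operations. The difference was 0.37 ± 0.14 (adjusted p = 0.0634) in sham and 0.60 ± 0.14 (adjusted p = 0.00292) in uninephrectomized dogs. With the sham arrays of 1 number paired as a replicate block, the sham difference had adjusted p = 0.0285, and it was called without sham atrial array 1 (0.0415), uninephrectomized atrial array 1 (0.0424) or uninephrectomized ventricular array 5 (0.0425). The second PRDX4 probe set gave 0.08 ± 0.11 in sham dogs.

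In sham dogs PRDX1 read 11.81, 11.89, 11.88, 11.71 and 11.69 in the atrium and 11.69, 11.55, 11.85, 11.71 and 11.86 in the ventricle. After uninephrectomy PRDX1 read 11.79, 11.68, 11.62, 11.91 and 11.75 in the atrium and 11.67, 11.68, 11.67, 11.58 and 11.80 in the ventricle. These PRDX1 values, for a cytosolic peroxiredoxin, overlapped in all 4 groups, with 0.06 ± 0.07 (adjusted p = 0.583) between the sham chambers. In sham dogs PRDX2 read 10.48, 10.37, 10.52, 10.61 and 10.31 in the atrium and 10.62, 10.54, 10.51, 10.49 and 10.44 in the ventricle. After uninephrectomy PRDX2 read 10.49, 10.47, 10.54, 10.43 and 10.46 in the atrium and 10.45, 10.49, 10.61, 10.66 and 10.60 in the ventricle. PRDX2, a cytosolic form abundant in red cells, gave -0.06 ± 0.06 (adjusted p = 0.534). In sham dogs PRDX5 read 11.57, 11.35, 11.40, 11.60 and 11.55 in the atrium and 11.47, 11.09, 11.32, 11.22 and 11.31 in the ventricle. After uninephrectomy PRDX5 read 11.68, 11.35, 11.94, 11.27 and 11.42 in the atrium and 11.51, 11.37, 11.52, 11.28 and 11.21 in the ventricle. PRDX5, found in mitochondria, peroxisomes and cytosol, gave 0.21 ± 0.11 (adjusted p = 0.195). Surgery differences of the 6 peroxiredoxins ran from -0.06 to 0.13 in the atrium and from -0.10 to 0.10 in the ventricle, and all 12 confidence intervals lay within 0.5 of 0.

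In the thioredoxin system 0 of 6 members were called between the sham chambers, where 20.8% of all probe sets were called. In sham dogs TXN read 11.47, 11.47, 11.61, 11.37 and 11.43 in the atrium and 11.56, 11.36, 11.62, 11.48 and 11.52 in the ventricle. After uninephrectomy TXN read 11.46, 11.56, 11.59, 11.59 and 11.40 in the atrium and 11.62, 11.32, 11.41, 11.39 and 11.64 in the ventricle. TXN, the cytosolic thioredoxin, overlapped in all groups and differed by -0.04 ± 0.07 (adjusted p = 0.785) between sham chambers. In sham dogs TXN2 read 7.55, 7.23, 7.33, 7.34 and 7.35 in the atrium and 7.73, 7.45, 7.14, 7.43 and 7.30 in the ventricle. After uninephrectomy TXN2 read 7.48, 7.06, 7.66, 7.25 and 7.44 in the atrium and 7.76, 7.65, 7.92, 7.72 and 7.65 in the ventricle. TXN2, the mitochondrial thioredoxin, was highest in the uninephrectomized ventricles, which overlapped with the sham ventricles through sham array 1. Surgery differed by 0.33 ± 0.11 (adjusted p = 0.617) in the ventricle and 0.02 ± 0.11 in the atrium. The second TXN2 probe set gave 0.19 ± 0.08 in the ventricle. Between chambers TXN2 stood at -0.05 ± 0.11 (adjusted p = 0.809) in sham and -0.36 ± 0.11 (adjusted p = 0.0203) in uninephrectomized dogs, and the change of that difference was -0.31 ± 0.16 (adjusted p = 1). The second call was lost without uninephrectomized atrial array 2 (0.0634), uninephrectomized atrial array 4 (0.0505) or uninephrectomized ventricular array 3 (0.0572).

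In sham dogs TXNIP read 10.57, 10.58, 10.34, 11.39 and 10.97 in the atrium and 10.52, 10.64, 10.17, 10.17 and 10.15 in the ventricle. After uninephrectomy TXNIP read 10.46, 10.91, 10.49, 10.49 and 10.73 in the atrium and 9.75, 10.70, 10.002, 10.07 and 9.82 in the ventricle. TXNIP, which binds and inhibits thioredoxin, spread widely within groups and its chambers overlapped in both operations. The chamber difference was 0.44 ± 0.19 (adjusted p = 0.111) in sham and 0.55 ± 0.19 (adjusted p = 0.0399) in uninephrectomized dogs. The latter was lost without uninephrectomized atrial array 2 (0.0989), uninephrectomized atrial array 5 (0.0790), uninephrectomized ventricular array 1 (0.100), uninephrectomized ventricular array 3 (0.0744), uninephrectomized ventricular array 4 (0.0654) or uninephrectomized ventricular array 5 (0.0903), and with no filter (0.0517). Surgery left TXNIP at -0.16 ± 0.19 in the atrium and -0.26 ± 0.19 in the ventricle. The second TXNIP probe set read 5.29 to 7.96 in sham and 6.02 to 8.03 in uninephrectomized ventricles. Its mean was higher after surgery in the ventricle and slightly lower in the atrium. In sham dogs TXNRD1 read 8.59, 8.79, 8.51, 8.83 and 8.66 in the atrium and 8.73, 8.26, 8.50, 8.87 and 8.84 in the ventricle. After uninephrectomy TXNRD1 read 8.92, 8.83, 8.83, 8.68 and 8.97 in the atrium and 8.89, 8.93, 8.98, 8.85 and 8.78 in the ventricle. TXNRD1, the cytosolic thioredoxin reductase, had a ventricular surgery difference of 0.24 ± 0.10 (adjusted p = 0.693) and 0.17 ± 0.10 in the atrium. Its 2 other bright probe sets gave -0.04 ± 0.24 and 0.14 ± 0.18 in the ventricle. The mitochondrial reductase TXNRD2 differed by -0.23 ± 0.10 (adjusted p = 0.119) between sham chambers and was called without sham atrial array 3 (0.0401), and TXNRD3 lay under log2 3 on average in every group.

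The 9 other genes starting with TXN hold a thioredoxin fold but do not all act on oxidants. In sham dogs TXNDC11 read 5.79, 5.50, 5.90, 5.33 and 5.67 in the atrium and 4.52, 4.78, 4.50, 4.79 and 4.16 in the ventricle. After uninephrectomy TXNDC11 read 5.94, 5.94, 5.74, 5.61 and 5.31 in the atrium and 4.46, 4.60, 4.83, 5.26 and 4.91 in the ventricle. For TXNDC11, a thioredoxin domain protein of the endoplasmic reticulum, every atrial array lay above every ventricular one. By the brightest probe sets it had the largest positive chamber difference of the members in sham dogs (MGST1 was at 3.80 and 2.44 by its others), 2.13-fold higher in the atrium (1.09 ± 0.16, adjusted p = 7.85e-05), and 0.90 ± 0.16 (adjusted p = 0.000381) after uninephrectomy. In sham dogs TXNL4A read 9.76, 10.05, 9.87, 9.76 and 9.55 in the atrium and 10.55, 10.97, 10.84, 10.60 and 10.78 in the ventricle. After uninephrectomy TXNL4A read 9.71, 9.58, 9.64, 9.78 and 9.73 in the atrium and 10.71, 10.81, 10.61, 10.50 and 10.64 in the ventricle. TXNL4A, a spliceosome protein, was separated the other way in both operations. It had the smallest adjusted p of the members and was 1.93-fold lower in the sham atrium (-0.95 ± 0.09, adjusted p = 6.22e-07) and -0.96 ± 0.09 (adjusted p = 4.20e-07) after uninephrectomy. Its 2 other probe sets gave -0.95 ± 0.10 and -1.08 ± 0.15 in sham dogs.

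In sham dogs TXNDC16 read 2.98, 2.92, 3.42, 3.03 and 2.86 in the atrium and 2.55, 2.32, 2.52, 2.46 and 2.68 in the ventricle. After uninephrectomy TXNDC16 read 3.10, 3.57, 2.99, 3.25 and 3.00 in the atrium and 2.32, 2.62, 2.55, 2.47 and 2.56 in the ventricle. TXNDC16, a luminal protein of the endoplasmic reticulum, was also separated in both operations, but its ventricular signals lie under log2 3, near the low end of the scale. It differed by 0.53 ± 0.11 (adjusted p = 0.00224) in sham and 0.68 ± 0.11 (adjusted p = 0.000197) in uninephrectomized dogs. In sham dogs TXNL1 read 10.98, 11.07, 11.30, 11.05 and 10.95 in the atrium and 11.07, 11.03, 11.34, 11.23 and 11.09 in the ventricle. After uninephrectomy TXNL1 read 10.90, 10.72, 10.98, 10.92 and 11.10 in the atrium and 11.03, 11.24, 11.02, 11.15 and 11.24 in the ventricle. TXNL1, a thioredoxin-like protein of the proteasome, had one of the 3 smallest atrial surgery p-values of the members. It overlapped in all groups, at -0.15 ± 0.08 (adjusted p = 0.777) in the atrium. Between the uninephrectomized chambers TXNL1 stood at -0.22 ± 0.08 (adjusted p = 0.0654) and was called without sham atrial array 3 (0.0466) or uninephrectomized atrial array 5 (0.0369). Its direction depended on the probe set. The weakest TXNL1 probe set was higher in the uninephrectomized atria (2.90 to 3.15) than in the ventricles (2.32 to 2.75), without overlap. The middle one overlapped (3.84 to 4.18 against 3.96 to 4.26). Both were positive between the sham chambers, at up to 0.23. The remaining TXNDC2, TXNDC9, TXNDC12, TXNDC15 and TXNL4B had sham chamber differences from -0.11 to 0.11 and were not called. The atrial and ventricular TXNDC12 signals did not overlap in sham dogs (0.11 ± 0.05), where a second bright probe set gave -0.08 ± 0.09. A second TXNL4B probe set was called in sham dogs at 0.56 ± 0.17 (adjusted p = 0.0269), against 0.03 ± 0.13 for the brightest.

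By the brightest probe sets, the 4 genes of glutathione synthesis and reduction had 0 calls in any comparison, but GCLC lay near the threshold. In sham dogs GCLC read 4.30, 4.27, 3.67, 4.02 and 4.33 in the atrium and 4.86, 4.66, 3.66, 4.41 and 4.74 in the ventricle. After uninephrectomy GCLC read 4.60, 4.28, 4.73, 4.21 and 3.92 in the atrium and 4.61, 5.11, 5.34, 4.92 and 4.65 in the ventricle. GCLC, the catalytic subunit of the enzyme that limits glutathione synthesis, overlapped between chambers in each operation and between operations in each chamber. It lay 0.46 ± 0.21 from sham in the uninephrectomized ventricle (adjusted p = 0.740) and differed between chambers by -0.35 ± 0.21 (adjusted p = 0.271) in sham and -0.57 ± 0.21 (adjusted p = 0.0514) in uninephrectomized dogs. The second bright GCLC probe set gave -0.65 between the sham chambers and was not called there. That probe set read 2.78 to 4.00 in sham and 3.10 to 4.04 in uninephrectomized ventricles. With the sham pairs as a replicate block GCLC was called lower between the uninephrectomized chambers (adjusted p = 0.0423), and it was called there under 13 of 28 alternatives. It was called in sham dogs without sham ventricular array 3 (0.0391), and in uninephrectomized dogs without sham atrial array 3 (0.0450), uninephrectomized atrial array 1 (0.0472), uninephrectomized atrial array 3 (0.0338), sham ventricular array 1 (0.0489), sham ventricular array 3 (0.0174), uninephrectomized ventricular array 1 (0.0408) or uninephrectomized ventricular array 5 (0.0450). In sham dogs GCLM read 8.01, 7.87, 7.99, 8.0 and 7.46 in the atrium and 7.90, 7.56, 7.85, 7.85 and 7.82 in the ventricle. After uninephrectomy GCLM read 7.83, 7.88, 7.65, 7.94 and 7.87 in the atrium and 7.83, 7.85, 7.61, 7.68 and 7.95 in the ventricle. The regulatory subunit GCLM differed by 0.07 ± 0.10 (adjusted p = 0.692) between sham chambers and by -0.01 ± 0.10 with surgery in the ventricle.

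In sham dogs GSS read 5.38, 5.16, 4.79, 5.09 and 5.24 in the atrium and 5.18, 4.92, 4.90, 4.38 and 5.11 in the ventricle. After uninephrectomy GSS read 5.65, 5.62, 5.32, 4.54 and 5.30 in the atrium and 5.19, 5.24, 5.20, 5.57 and 4.84 in the ventricle. For GSS, which completes glutathione, surgery differed by 0.31 ± 0.19 (adjusted p = 0.769) in the ventricle and the groups overlapped. The second GSS probe set gave 0.34 ± 0.16 there. In sham dogs GSR read 4.08, 3.08, 3.86, 3.63 and 3.28 in the atrium and 4.00, 4.24, 3.27, 4.09 and 4.11 in the ventricle. After uninephrectomy GSR read 3.86, 3.96, 4.03, 3.49 and 3.40 in the atrium and 3.95, 4.24, 4.13, 4.49 and 3.85 in the ventricle. GSR, the reductase that restores glutathione, gave -0.35 ± 0.20 (adjusted p = 0.239) between sham chambers. In all 4 of these genes the atrial surgery effect minus the ventricular one was negative, from -0.22 to -0.02, and none passed the test. Each value was smaller than its standard error and turned positive under at least 1 alternative, and 25 of the 43 members were negative. With the 3' gap as a covariate, GCLC and GSR were called lower in the sham atrium, at -0.62 ± 0.16 (adjusted p = 0.0105) and -0.60 ± 0.16 (adjusted p = 0.0118). That gap was 1.19 ± 0.19 (SD) in the sham atrial group and 1.42 ± 0.27 (SD) in the ventricular one, with a two-sided exact permutation p of 0.159.

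The 7 glutathione transferases join glutathione to reactive compounds, and 3 were called higher and 2 lower in the sham atrium, or 4 and 1 with MGST1 read from either of its other probe sets. Of all probe sets 11.2% were called higher and 9.62% lower there. Among those with a mean of at least log2 3 in 1 group, 33.3% were called in either direction. In sham dogs GSTA4 read 10.09, 9.79, 9.67, 10.12 and 9.88 in the atrium and 8.86, 8.82, 8.98, 9.37 and 8.61 in the ventricle. After uninephrectomy GSTA4 read 10.07, 10.21, 10.14, 10.28 and 10.10 in the atrium and 8.89, 9.29, 9.08, 9.11 and 9.44 in the ventricle. GSTA4, which conjugates the lipid peroxidation product 4-hydroxynonenal, was higher in every atrial than in every ventricular array. It was 1.97-fold higher in the sham atrium (0.98 ± 0.13, adjusted p = 1.75e-05) and 1.99-fold higher after uninephrectomy (0.99 ± 0.13, adjusted p = 1.10e-05). The second GSTA4 probe set gave 1.10 ± 0.18 in sham dogs. Surgery differed by 0.25 ± 0.13 (adjusted p = 0.765) in the atrium and 0.24 ± 0.13 (adjusted p = 0.758) in the ventricle.

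In sham dogs MGST2 read 8.57, 8.28, 8.36, 8.04 and 8.25 in the atrium and 7.52, 7.78, 7.71, 7.11 and 7.58 in the ventricle. After uninephrectomy MGST2 read 8.49, 7.97, 8.44, 7.89 and 8.24 in the atrium and 7.47, 7.44, 7.75, 7.70 and 7.48 in the ventricle. MGST2, a microsomal transferase that can form leukotriene C4, was separated between chambers in both operations. It differed by 0.76 ± 0.13 (adjusted p = 0.000466) in sham and 0.64 ± 0.13 (adjusted p = 0.00159) in uninephrectomized dogs, and the second probe set by 1.08 ± 0.14 in sham dogs. In sham dogs GSTO1 read 9.75, 9.94, 10.04, 9.85 and 9.60 in the atrium and 9.30, 9.60, 9.34, 9.53 and 9.49 in the ventricle. After uninephrectomy GSTO1 read 9.61, 9.43, 9.85, 9.63 and 9.82 in the atrium and 9.14, 9.43, 9.17, 9.33 and 9.45 in the ventricle. GSTO1, an omega class transferase with thiol transfer activity, overlapped at single arrays. The difference was 0.38 ± 0.10 (adjusted p = 0.00848) in sham and 0.36 ± 0.10 (adjusted p = 0.00892) in uninephrectomized dogs, with surgery at -0.17 ± 0.10 (adjusted p = 0.779) in the atrium.

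In sham dogs GSTK1 read 10.71, 10.93, 11.14, 10.85 and 10.56 in the atrium and 11.06, 11.32, 11.55, 11.29 and 11.26 in the ventricle. After uninephrectomy GSTK1 read 10.57, 10.57, 10.90, 10.76 and 10.89 in the atrium and 11.25, 11.16, 11.08, 11.26 and 11.29 in the ventricle. GSTK1, the kappa class transferase of mitochondria and peroxisomes, was lower in every uninephrectomized atrium than in every uninephrectomized ventricle, and the sham chambers overlapped at single arrays. It stood at -0.46 ± 0.11 (adjusted p = 0.00412) in sham and -0.47 ± 0.11 (adjusted p = 0.00259) in uninephrectomized dogs. A second bright probe set gave -0.51 ± 0.10 in sham dogs. GSTO2 lay under log2 3 on average in every group, and its call in uninephrectomized dogs (-0.25 ± 0.08, adjusted p = 0.0335) was lost without uninephrectomized atrial array 1 (0.0622), uninephrectomized atrial array 2 (0.0608), uninephrectomized atrial array 3 (0.0599), uninephrectomized atrial array 5 (0.0584), uninephrectomized ventricular array 3 (0.0785) or uninephrectomized ventricular array 5 (0.0952), and with quantile normalization (0.0559).

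**Figure D3:**
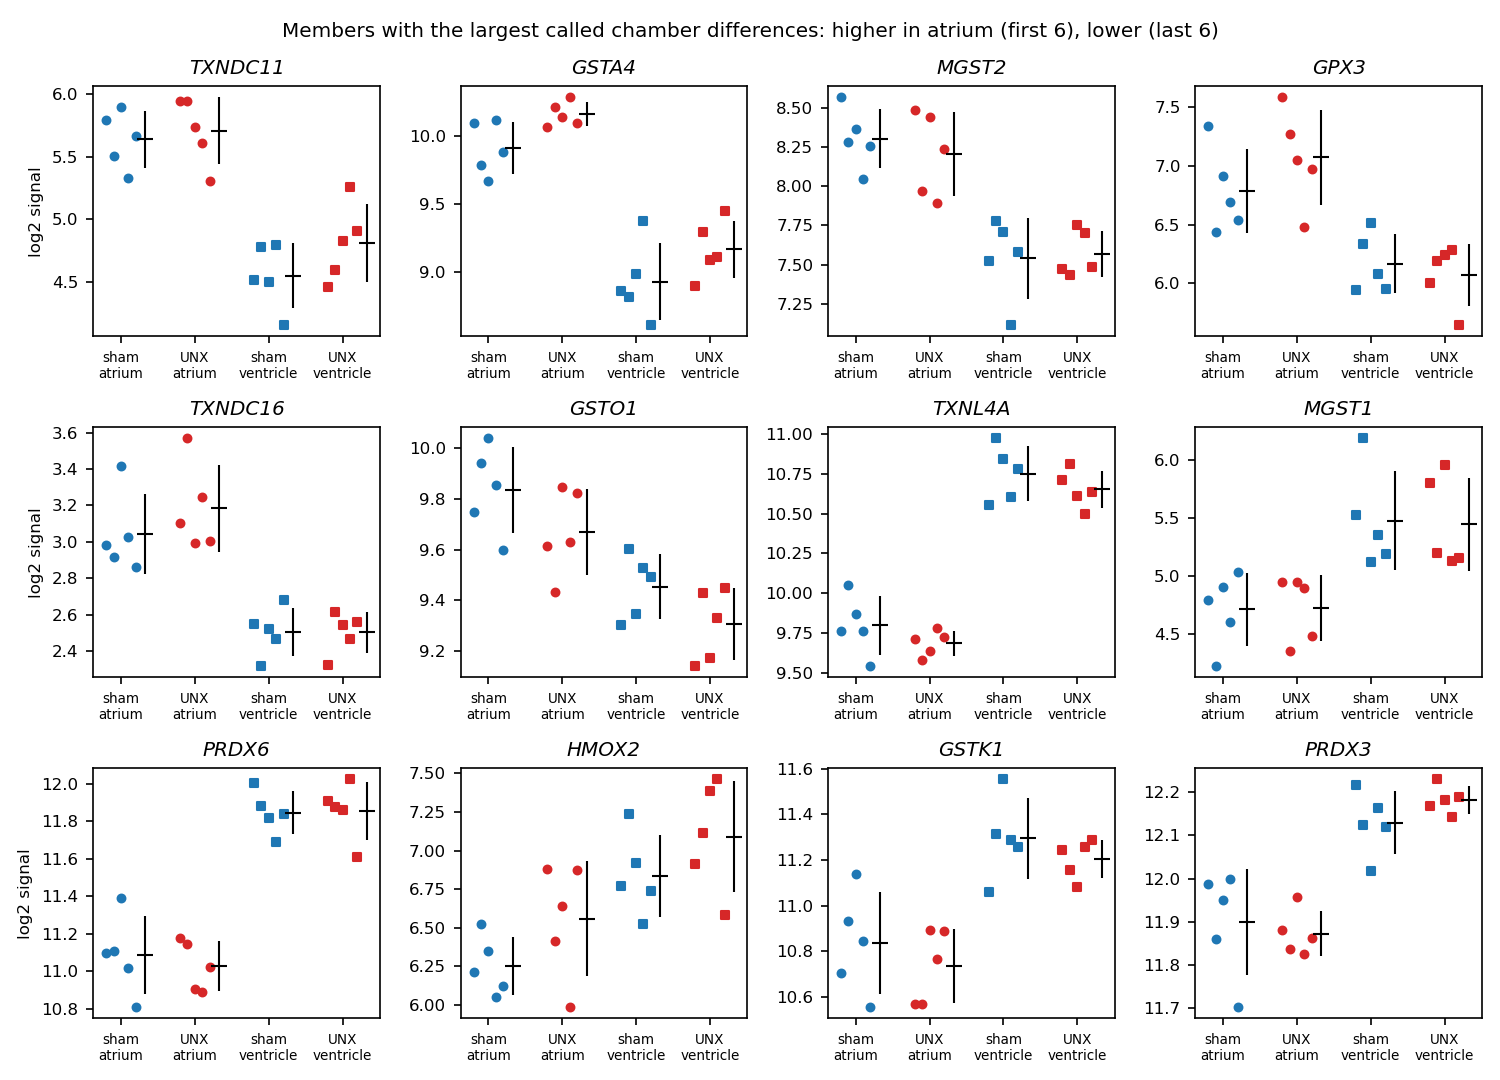
Log2 signal (vertical axis) of the 12 members with the largest called chamber differences in sham dogs, by group (horizontal axis; UNX is uninephrectomy), with 1 point per array and the mean ± SD as a bar beside them. In TXNDC11, GSTA4, MGST2 and TXNDC16 all atrial points lie above all ventricular points of the same operation, and in TXNL4A, PRDX6 and PRDX3 all lie below. MGST1 also lies below by the brightest probe set drawn here, while its 2 other probe sets were higher in the atrium.

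MGST1, a microsomal transferase of the endoplasmic reticulum and outer mitochondrial membrane, gave opposite directions by probe set, and its call rests on the probe set chosen. In sham dogs MGST1 read 4.80, 4.22, 4.90, 4.60 and 5.04 in the atrium and 5.52, 6.19, 5.12, 5.35 and 5.19 in the ventricle. After uninephrectomy MGST1 read 4.94, 4.35, 4.95, 4.89 and 4.48 in the atrium and 5.80, 5.20, 5.96, 5.12 and 5.15 in the ventricle. By this brightest probe set all atrial arrays lay below all ventricular ones, at -0.76 ± 0.22 (adjusted p = 0.0161) in sham and -0.72 ± 0.22 (adjusted p = 0.0175) in uninephrectomized dogs. The first of these was lost without sham atrial array 2 (0.0501) and the second without uninephrectomized atrial array 2 (0.0505) or uninephrectomized ventricular array 3 (0.0550). A second MGST1 probe set read 3.72, 7.37, 9.19, 6.86 and 7.93 in sham atria and 2.50, 4.04, 2.82, 3.54 and 3.16 in sham ventricles. It was higher in the atrium by 3.80 ± 0.66 (adjusted p = 0.000405) in sham and 3.69 ± 0.66 (adjusted p = 0.000386) in uninephrectomized dogs. The weakest was also higher, by 2.44 ± 0.59 (adjusted p = 0.00571) and 1.63 ± 0.59 (adjusted p = 0.0465). Sham atrial array 1 lay far below the other sham atria on both of these probe sets, and without it their sham differences were 4.63 ± 0.42 and 3.06 ± 0.46. No direction for MGST1 as a gene is given, and of the 10 members called in sham dogs that have 2 or more bright probe sets it was the only one whose probe sets differed in sign there.

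GSTZ1, a zeta class transferase of tyrosine breakdown, varied most among the members within groups. Its pooled SD was 1.08, above that of 99.4% of tested probe sets, where the median was 0.17 for the members and 0.17 for all probe sets. In sham dogs GSTZ1 read 5.43, 2.95, 2.86, 3.39 and 3.36 in the atrium and 5.98, 4.18, 3.49, 3.84 and 4.00 in the ventricle. After uninephrectomy GSTZ1 read 6.02, 3.08, 5.61, 4.17 and 3.40 in the atrium and 5.73, 4.20, 6.53, 4.77 and 4.74 in the ventricle. In sham dogs array 1 was highest in both chambers, and the sham numbers pair the chambers by the check of the arrays. In the uninephrectomized groups arrays 1 and 3 were high in each chamber, where equal numbers do not pair. Over all tested probe sets, atrial array 1 correlated best there with ventricular array 3, and atrial array 3 with ventricular array 1. No comparison of GSTZ1 was called, with -0.70 ± 0.63 (adjusted p = 0.484) between sham chambers and -0.46 ± 0.31 (adjusted p = 0.324) by the second bright probe set.

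**Figure D4:**
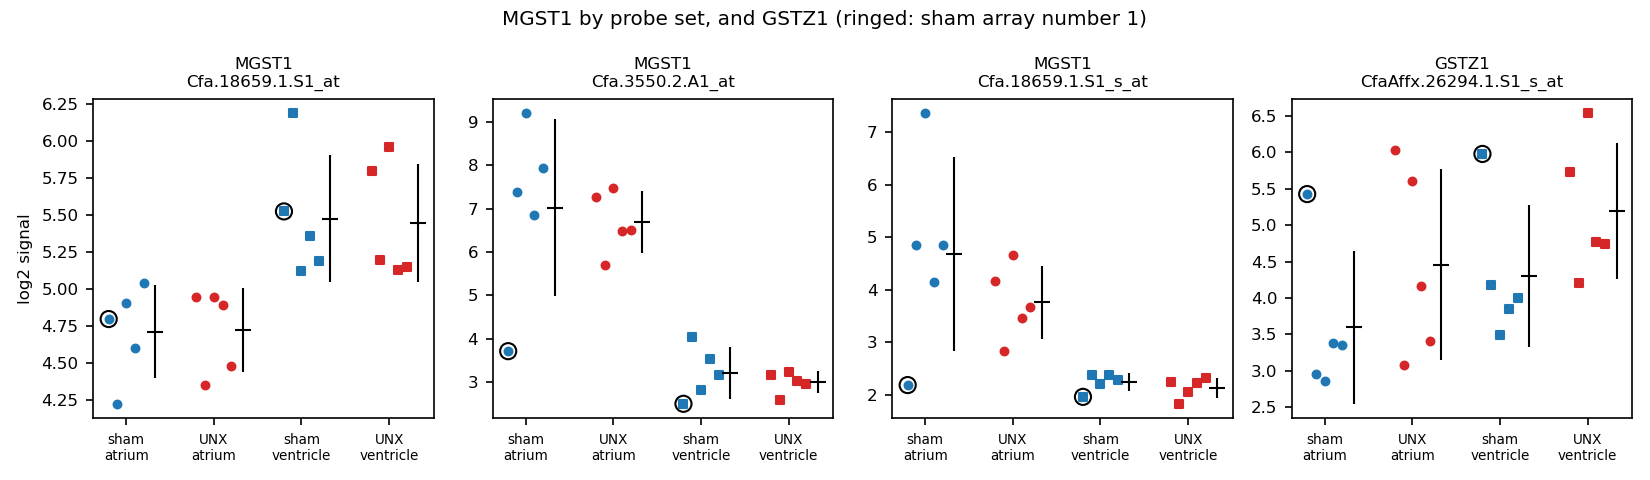
Log2 signal (vertical axis) of the 3 MGST1 probe sets and the GSTZ1 probe set by group (horizontal axis; UNX is uninephrectomy), 1 point per array, with the mean ± SD as a bar; sham array 1 is ringed. The first MGST1 probe set is lower and the others are higher in the atrium, with the ringed atrial array at 3.72 and 2.18 on those, and GSTZ1 is highest in the ringed array among sham dogs in both chambers.

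Of the heme oxygenases, which break heme down to biliverdin, iron and carbon monoxide, the constitutive HMOX2 was lower in the atrium. In sham dogs HMOX2 read 6.21, 6.53, 6.35, 6.05 and 6.12 in the atrium and 6.77, 7.24, 6.92, 6.52 and 6.74 in the ventricle. After uninephrectomy HMOX2 read 6.88, 6.42, 6.64, 5.99 and 6.87 in the atrium and 6.92, 7.11, 7.38, 7.46 and 6.58 in the ventricle. The HMOX2 chambers touched at single arrays in sham dogs and overlapped after uninephrectomy. The difference was -0.58 ± 0.18 (adjusted p = 0.0282) in sham and -0.53 ± 0.18 (adjusted p = 0.0369) in uninephrectomized dogs. The sham call was lost without sham atrial array 1 (0.0503), sham atrial array 4 (0.0685), sham atrial array 5 (0.0634), sham ventricular array 2 (0.0766) or sham ventricular array 3 (0.0538), and the other without uninephrectomized atrial array 2 (0.0775), uninephrectomized atrial array 4 (0.107), uninephrectomized ventricular array 2 (0.0646), uninephrectomized ventricular array 3 (0.0941) or uninephrectomized ventricular array 4 (0.101). A second HMOX2 probe set gave -0.39 ± 0.18 (adjusted p = 0.130) in sham dogs. In sham dogs HMOX1 read 1.65, 1.66, 1.56, 1.62 and 1.58 in the atrium and 1.51, 1.73, 1.43, 1.61 and 1.56 in the ventricle. After uninephrectomy HMOX1 read 1.45, 1.52, 1.53, 1.57 and 1.69 in the atrium and 1.63, 1.53, 1.56, 1.55 and 1.56 in the ventricle. HMOX1, the inducible form and a classic NRF2 target, thus lay at the low end of the scale on all 20 arrays and was not tested.

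NQO1, an NRF2 target that reduces quinones, had the smallest ventricular surgery p of the members. In sham dogs NQO1 read 3.83, 3.42, 3.68, 3.79 and 3.65 in the atrium and 3.46, 3.70, 3.26, 3.52 and 3.27 in the ventricle. After uninephrectomy NQO1 read 3.99, 3.84, 3.93, 3.64 and 3.97 in the atrium and 3.55, 4.38, 3.98, 3.86 and 3.67 in the ventricle. The uninephrectomized ventricles read higher on average but overlapped with the sham ventricles. Surgery differed by 0.45 ± 0.13 (adjusted p = 0.558) in the ventricle (95% confidence interval 0.17 to 0.72) and 0.20 ± 0.13 (adjusted p = 0.801) in the atrium, and the test of the difference between these gave -0.25 ± 0.18 (adjusted p = 1). Over 28 other settings the ventricular NQO1 difference ran from 0.32 to 0.53 with adjusted p from 0.331 to 1. The 2 other NQO1 probe sets lie under log2 3 in every group, at -0.05 ± 0.11 in the ventricle for the brighter of them. The 3' gap of the ventricular arrays averaged 1.42 ± 0.27 (SD) in the sham group and 1.14 ± 0.15 (SD) after surgery, with a two-sided exact permutation p of 0.0635. With that gap as a covariate no member was called for surgery. NQO2 ranged from 6.28 to 7.01 over the 20 arrays and was not called in any comparison.

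**Figure D5:**
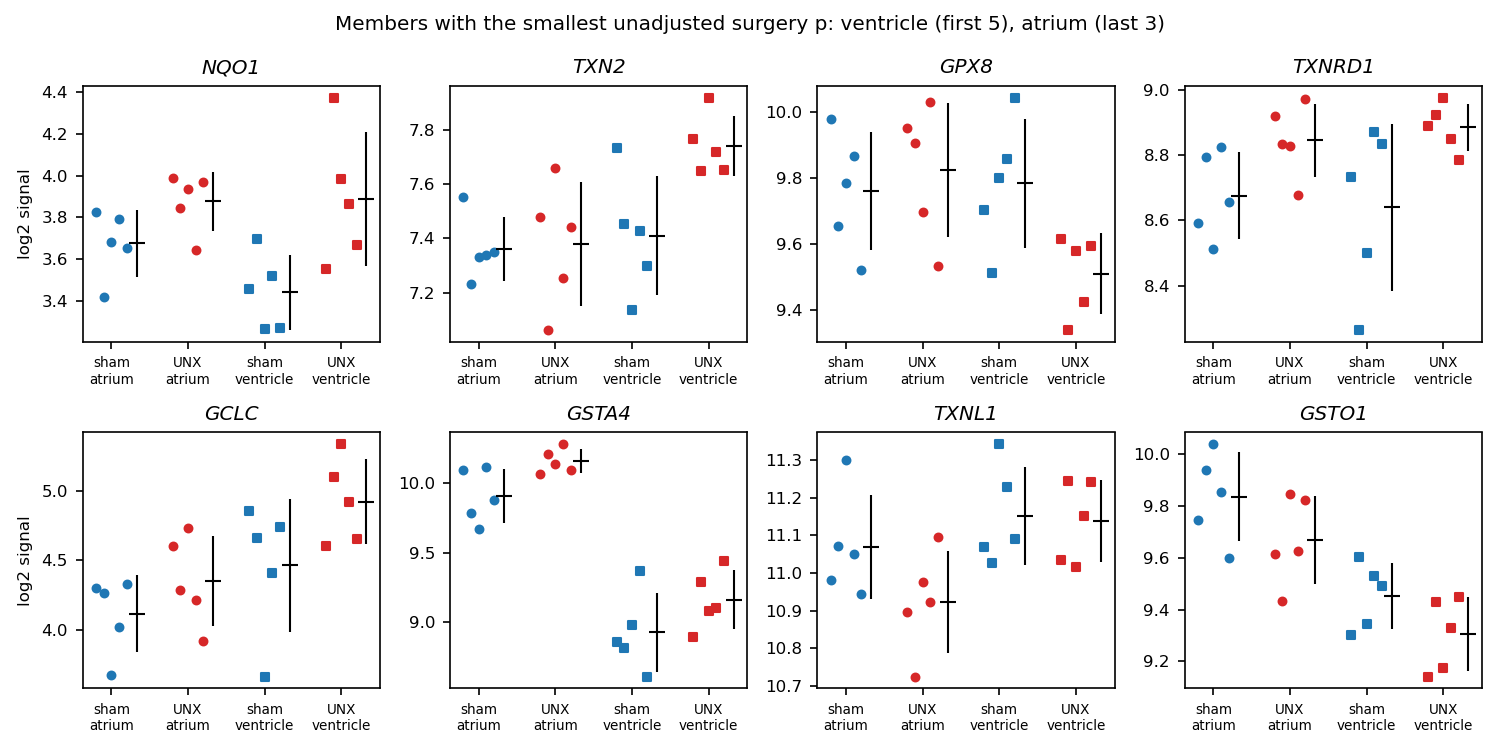
Log2 signal (vertical axis) by group (horizontal axis; UNX is uninephrectomy) of the 5 members with an unadjusted p under 0.05 for surgery in the ventricle and the 3 with the smallest such p in the atrium, 1 point per array, with the mean ± SD as a bar. Operated and sham points of the same chamber overlap in all 8 genes.

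The wider pathway was counted from lists of genes outside the members, to be read beside the 11.2% of all probe sets called higher and 9.62% called lower in sham dogs. For each list the genes with the largest differences are named, and the others named were chosen after their values were seen. Of 8 tested NRF2 regulators 0 were called higher and 1 lower in the sham atrium, KEAP1, which holds NRF2 back, at -0.58 ± 0.17 (adjusted p = 0.0212). Of 15 tested NRF2 target enzymes 4 were higher and 1 lower. These include UGDH, which makes UDP-glucuronate, at 0.77 ± 0.19 (adjusted p = 0.00695), malic enzyme ME1 at 0.63 ± 0.15 (adjusted p = 0.00495) and BLVRA, which reduces biliverdin, at 0.45 ± 0.14 (adjusted p = 0.0330), and the lower one, the efflux pump ABCC4, was at -0.24 ± 0.07 (adjusted p = 0.0144) with signals under log2 3. Of 19 tested genes of the glutathione cycle and glutaredoxins 3 were higher and 5 lower. The largest differences were those of GGCT, which cleaves gamma-glutamyl dipeptides, at 0.74 ± 0.14 (adjusted p = 0.00107), LANCL1, which binds glutathione, at 0.65 ± 0.18 (adjusted p = 0.0160), and the prostaglandin D synthase HPGDS at 6.57 ± 0.51 (adjusted p = 3.14e-08). The 5 lower were the glyoxalases HAGH at -0.57 ± 0.12 (adjusted p = 0.00205) and GLO1 at -0.36 ± 0.06 (adjusted p = 0.000438), the glutaredoxins GLRX at -0.51 ± 0.09 (adjusted p = 0.000353) and GLRX2 at -0.45 ± 0.11 (adjusted p = 0.00702), and CHAC1, which breaks glutathione down, at -0.52 ± 0.09 (adjusted p = 0.000500).

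Among 18 tested selenoprotein and methionine sulfoxide reductase genes 4 were higher and 1 lower in the sham atrium. SELENOM, a selenoprotein of the endoplasmic reticulum, stood at 1.57 ± 0.19 (adjusted p = 6.91e-06), the reductase MSRA at 0.77 ± 0.11 (adjusted p = 4.08e-05) and MSRB1 at 0.49 ± 0.13 (adjusted p = 0.0118). The lower one, SELENOS of the endoplasmic reticulum, was at -0.34 ± 0.07 (adjusted p = 0.00227). Of 13 tested oxidant sources 4 were higher and 0 lower, namely ERO1B, an oxidase of the endoplasmic reticulum, at 3.00 ± 0.29 (adjusted p = 5.11e-07), the monoamine oxidases MAOB at 2.38 ± 0.32 (adjusted p = 2.43e-05) and MAOA at 1.04 ± 0.13 (adjusted p = 1.60e-05), and CYBA, a subunit of NADPH oxidases, at 0.74 ± 0.10 (adjusted p = 2.77e-05). Of 9 tested genes of mitochondrial NADPH and peroxide supply 1 was higher and 3 lower. NNT, which makes NADPH in mitochondria, gave -0.87 ± 0.07 (adjusted p = 7.43e-08), the aldehyde dehydrogenase ALDH2 0.40 ± 0.07 (adjusted p = 0.000471) and the uncoupling protein UCP3 -4.11 ± 0.43 (adjusted p = 1.39e-06), and the third lower gene, PARK7, -0.32 ± 0.06 (adjusted p = 0.000457). In uninephrectomized dogs these 6 lists had 0, 5, 5, 4, 6 and 1 genes called higher and 2, 1, 6, 2, 0 and 3 lower, in the order given, of 8, 15, 19, 18, 13 and 9 tested, where 14.7% of all probe sets were called higher and 12.5% lower. With uninephrectomy 0 genes of the 6 lists were called in either chamber. The median sham chamber difference of the tested genes was -0.09, -0.09, -0.06, 0.08, 0.05 and -0.13 in these lists, in the same order, beside -0.01 over the 11423 genes.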

How the data were processed

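Gene expression was measured in 20 tissue samples on Affymetrix canine arrays. Per the labels' protocols, Trizol RNA was labelled by the IVT Express method from 100 ng. The values that were deposited are the authors' processed probe set signals on a log2 scale, which is read from their range of 0.43 to 15.0. Their summary, background correction and normalization are not given in the sources used here, and dim signals lie close together, so small changes in weakly expressed genes may not be seen. Array medians ran from 2.33 to 2.39 and upper quartiles from 5.10 to 5.53. The number of arrays limits the precision. The values were used as deposited.

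Symbols came from the supplied platform annotation, which can be old. Of 43035 probe sets 29264 have 1 symbol. The 111 control probe sets and the 30% with the lowest mean (under log2 1.87) were left out, which left 30047. All tests are two-sided and used lmFit and eBayes of limma 3.58.1 under R 4.3.3, with 1 mean per group over all 20 arrays and 16 residual degrees of freedom. A call is a Benjamini-Hochberg adjusted p under 0.05 over all 30047 probe sets. The method was tested on simulated data. No 2 arrays held identical values.

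Nothing in the labels says which arrays share a dog. The deviations of same-numbered sham arrays from their group means correlated across chambers at 0.21 to 0.46, so the sham numbers were taken to pair the arrays. This comes from the data. Alternatives were other filters, 2 scalings, a replicate block, the 3' gap of the ACTB, GAPDH and EEF1A control probe sets as a covariate, and leaving out each array. Blocking the sham pairs alone, alone or with the gap, MGST1 by probe set without 1 array, and the counts with MGST1 read from its other probe sets, were added after seeing the data.

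The members, lists and rules were chosen with earlier results of these data known. Values in every array are given for the 6 members with the largest called sham chamber difference in each direction, those with the 3 smallest surgery p in each chamber and the 2 smallest for the difference, and a set of main enzymes. GSTZ1, TXNRD1 and the other probe sets were chosen after their values were seen.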

Additional observations from a re-analysis of the deposited data

Results flagged for a closer look

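In 9 of 172 groups of 5 arrays (5.23%), 1 array lay far from the other 4, about the share of 5% that chance gives. GSTZ1 read 5.43 in sham atrial array 1, with the next at 3.39, and 5.98 in sham ventricular array 1, with the next at 4.18. Both arrays carry the same number. GCLM was low in sham atrial array 5 (7.46, next 7.87) and in sham ventricular array 2 (7.56, next 7.82). GSR was low in sham ventricular array 3 (3.27, next 4.00). CAT was high in sham ventricular array 5 (11.58, next 11.32). TXNDC12 was high in sham atrial array 2 (9.91, next 9.75). TXNRD3 in sham ventricular array 2 (2.46) and GSTO2 in uninephrectomized atrial array 4 (1.93) stood above the rest of their groups at dim signals.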

How the results depend on the processing

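The member counts kept within 1.5 times of the main count under all 28 alternatives. Called members numbered 13 to 17 between the sham chambers (13 to 15 when 1 array was left out) and 12 to 22 between the uninephrectomized chambers (12 to 21), and 0 for both surgery comparisons and their difference. With the replicate number as a block (replicate block) the counts were 15 and 22, and with the sham pairs alone 15 and 19. The share of all probe sets called moved too, from 20.8% and 27.3% to 23.4% and 30% with the block and to 26.7% and 27.2% with the sham pairs. The 17 members in sham dogs came with 26.5% of probe sets called. In uninephrectomized dogs the 12 members came with 23.9%, and the 22 with 30% (block) and 30.2% (3' gap). With the sham-pair block and the 3' gap together GSTZ1 was called in sham dogs (-1.36, adjusted p = 0.0498). Between uninephrectomized chambers TXNDC12 was called without ventricular array 2 (adjusted p = 0.0481). Beyond PRDX4 in sham dogs and GCLC in uninephrectomized dogs (adjusted p = 0.0423), the block of the sham pairs changed no member's call. The uninephrectomized numbers do not pair the arrays: same-numbered deviations correlated at -0.24 to 0.12 and 0 of 5 arrays correlated best with their own number, against 5 of 5 in sham dogs. Uninephrectomized atrial arrays 1 to 5 correlated best with ventricular arrays 3, 4, 1, 5 and 2, each with a different one. Whether these share a dog under other numbers was not tested, and no fit paired them. The replicate block joins arrays of equal number in both operations. Of the 14 sham calls 10 held under every alternative, and of the 18 calls in uninephrectomized dogs 12. GPX3, HMOX2, MGST1 and PRDX3 lost theirs under at least 1 in sham dogs, and GPX8, GSTO2, HMOX2, MGST1, TXN2 and TXNIP in uninephrectomized dogs. Over the 28 alternatives, 0 of 895 values of called differences changed sign, and 276 of 5100 values of uncalled ones did. Many of these values could not change. Other filters, the blocks without the gap, and leaving out an array of the other operation keep the group means behind a chamber difference.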
